A study of Rattus norvegicus with 8 samples.

Results

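The 8 genes Hnf4a, Pax2, Pax8, Ppara, Esrrg, Tfcp2l1, Tfap2b and Nr1h4 encode transcription factors that set or keep the identity of kidney tubule cells. They were chosen by symbol from the 23188 transcript probe sets of the deposited table. Each symbol had 1 probe set, and all 8 passed the filter on low values, as did 13170 probe sets in all, 56.8% of the transcript probe sets. Phlorizin, which blocks the glucose transporters SGLT1 and SGLT2, was studied here in a rat model of kidney stones. RNA of the renal outer medulla and cortex of male Sprague-Dawley rats, 10 weeks old, was measured on Clariom S arrays. The 4 treatments were EG with phlorizin, EG, phlorizin alone and control, where EG stands for ethylene glycol plus alfacalcidol for 2 weeks, a drug pair commonly used to raise oxalate and calcium in the urine. Doses are not given in the sources used here. Each zone and treatment had 1 array, so there were 8 arrays and no replicates. Per the labels, kidneys were split into cortex and outer medulla, so both arrays of a treatment may come from the same animals. The labels do not say whether they do, or whether animals were pooled. No cells were sorted, so every value is a mean over whole tissue.

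Transcription factors of the nephron work in sets. HNF4A, a nuclear receptor, switches on genes of the mature proximal tubule, and PPARA, another nuclear receptor, drives fatty acid oxidation, the main fuel use of that segment. NR1H4, also called FXR, is the bile acid receptor and is made in proximal tubules as well as in liver. ESRRG is an orphan nuclear receptor that supports mitochondrial and solute transport genes. PAX2 and PAX8 are paired-box factors that start the kidney lineage and stay on in adult tubules, PAX2 mainly in the collecting duct. TFCP2L1 is needed for the intercalated and principal cells of the collecting duct in mice, and TFAP2B for the distal convoluted tubule in mice.

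Promoter windows in RefSeq (build GRCr8) were found for 6 of the 8 genes, with 10 annotated starts in all. The windows of Hnf4a are shown because it had the largest zone difference of the 8 genes and uses a pair of starts, and that of Ppara because it had the largest EG difference. Each window is the 250 bases before the start, 5′ to 3′. Capitals mark letters of the HNF1 motif GTTAAT, the nuclear receptor motif AGGTCA or the GC box GGGCGG, on either strand.
Hnf4a, upstream start, chr3:172605970-172606219, plus strand: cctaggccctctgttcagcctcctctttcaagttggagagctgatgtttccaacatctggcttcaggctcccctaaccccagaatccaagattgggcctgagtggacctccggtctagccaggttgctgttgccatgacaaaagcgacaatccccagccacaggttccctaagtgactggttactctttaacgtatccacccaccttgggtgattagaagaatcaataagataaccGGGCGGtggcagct
Hnf4a, downstream start, chr3:172641586-172641835, plus strand: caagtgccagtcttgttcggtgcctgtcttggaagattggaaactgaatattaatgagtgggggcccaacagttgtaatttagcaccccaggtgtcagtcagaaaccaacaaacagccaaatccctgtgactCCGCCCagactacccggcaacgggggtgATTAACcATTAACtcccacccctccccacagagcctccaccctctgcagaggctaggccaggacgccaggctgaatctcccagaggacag
Ppara, chr7:118712357-118712606, plus strand: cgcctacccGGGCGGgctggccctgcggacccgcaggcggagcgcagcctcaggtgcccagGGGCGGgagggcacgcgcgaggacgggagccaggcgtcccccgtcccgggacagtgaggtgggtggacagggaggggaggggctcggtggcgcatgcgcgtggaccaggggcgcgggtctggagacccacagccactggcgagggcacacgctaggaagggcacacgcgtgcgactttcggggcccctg
The downstream Hnf4a window held the HNF1 motif 2 times, beginning 90 and 83 bases before the start. It was the only one of the 10 windows with that motif, which 6.45% of the 33469 RefSeq windows hold and 0.409% hold at least 2 times. The nuclear receptor motif was in 1 of the 10 windows, that of a start of Esrrg, and in 14.1% of all windows. The GC box was in 8 of the 10 windows, and in 30.5% of all windows. A match of letters is not a binding site, and the array does not tell the starts of a gene apart.

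The array values were made by RMA and were read as log2, so a difference of 1 is a factor of 2 in signal. Array medians lay between 7.39 and 7.58, and 23 background probes averaged 5.53 to 5.68 per array. The highest background probe of an array lay between 7.64 and 7.98, and a value at or under it was taken as not above background. The cortex EG array stood apart in its spike-in controls. The mean of its poly-A spikes was 6.42, where the other arrays had 7.46 to 8.23, and the mean of its hybridisation spikes 10.4, where they had 10.6 to 11.3. Results that rest on that array are therefore given for each zone. The labelled zones matched their markers. S1 and S2 proximal tubule markers had a mean level of 7.68 to 7.96 on the outer medulla arrays and 15.97 to 16.91 on the cortex arrays, and thick ascending limb markers 14.52 to 16.26 on the outer medulla arrays and 12.11 to 14.11 on the cortex arrays. In whole tissue, fewer cells of a type and less RNA per cell cannot be told apart.

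**Figure D1:**
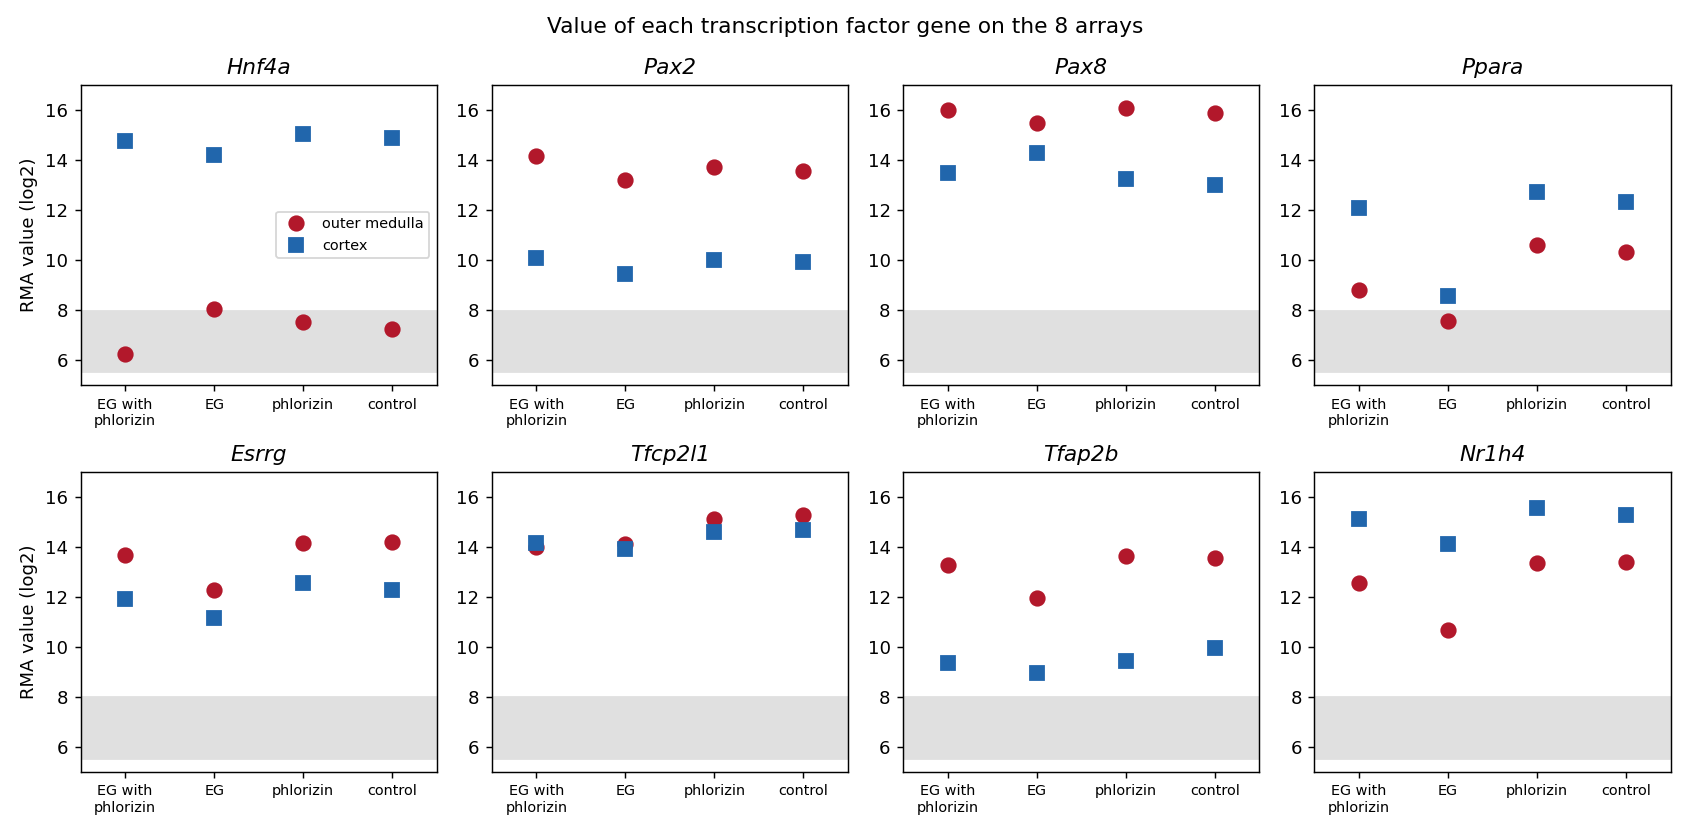
RMA value (log2, vertical axis) of each of the 8 genes by treatment (horizontal axis), with circles for outer medulla arrays and squares for cortex arrays, 1 array per point. The grey band runs from the lowest background mean of an array, 5.53, to the highest background probe, 7.98; Hnf4a in the outer medulla lies near or in it, and Ppara on both EG arrays comes down to 7.56 and 8.55.

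The zones differed in 7 of the 8 genes. Hnf4a, Nr1h4 and Ppara fell in the outer medulla relative to the cortex, while Pax2, Tfap2b, Pax8 and Esrrg rose there, each past the limma test with treatment as a block. Of all probe sets tested, 51.5% passed that test, 32.7% higher and 18.8% lower in the outer medulla, so the count of 7 stands against a background in which about every other probe set passed. The zone counts of gene lists below stand against the same shares. The p-values set the zone difference against its change between treatments, and do not measure the spread between animals. The same 7 genes passed without the EG pair of arrays.

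Hnf4a, the proximal tubule regulator, stood at 6.24, 8.02, 7.52 and 7.22 on the outer medulla arrays of EG with phlorizin, EG, phlorizin and control. On the cortex arrays of the same treatments it stood at 14.74, 14.21, 15.03 and 14.86. The cortex was bright throughout, and only 1 of the 4 outer medulla arrays, that of EG, lay above its highest background probe. The fitted difference was -7.46 (SE 0.35, limma adjusted p = 2.6e-05). Taking each outer medulla value at no less than the highest background probe of its array, the means were 7.90 and 14.71, so Hnf4a was at least 113-fold lower in the outer medulla. Among the genes linked to HNF4A, all 10 tested members fell in the outer medulla, with a median difference of -9.01, or -8.43 with each value raised to the background limit of its array, where all tested probe sets had 0.17. The organic anion transporter genes Slc22a6 and Slc22a8 were under that limit on all 4 outer medulla arrays, and were at least 364-fold and 852-fold lower there. The phosphate transporter gene Slc34a1, above background on all 8 arrays, differed by -9.84. Its outer medulla values, 7.80 to 8.74, lay close to background. All 10 tested markers of the S1 and S2 proximal tubule fell there too, and none of them was under the highest background probe on every array. The lists share genes, since Slc22a6, Slc22a8, Slc34a1, Slc5a12 and Cubn are on both. The part of segment make-up in the Hnf4a difference was not tested.

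Nr1h4, the bile acid receptor gene, had 12.54, 10.68, 13.35 and 13.40 on the outer medulla arrays of EG with phlorizin, EG, phlorizin and control, and 15.12, 14.10, 15.56 and 15.26 on those of the cortex. Every outer medulla value was below every cortex value, yet all lay well over background. Nr1h4 fell by 2.52 on the log2 scale in the outer medulla (SE 0.26, limma adjusted p = 0.000429), a 5.72-fold difference. Of the 8 listed bile acid genes that NR1H4 acts on in liver and gut, 3 could be tested. Abcc2, an organic anion pump gene, was at least 6.22-fold lower in the outer medulla, and Slc51a, for a subunit of the bile acid exporter OST, at least 1.76-fold lower. Both were under background on all 4 outer medulla arrays and passed the test. Nr0b2, encoding the repressor SHP, passed it as higher, but lay above background only on 2 outer medulla arrays and on no cortex array. Abcb11 and Abcb4 were under the highest background probe on all 8 arrays.

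Ppara overlapped between the zones through its low cortex value with EG. In the outer medulla it had 8.81, 7.56, 10.59 and 10.30 with EG and phlorizin, with EG, with phlorizin and in the control. In the cortex it had 12.08, 8.55, 12.72 and 12.34 in the same order. Within every treatment the outer medulla was lower, with differences of -3.27 with EG and phlorizin, -2.13 with phlorizin and -2.03 in the control. With EG the outer medulla value was not above background, and it was at least 1.73-fold lower than the cortex value. The fitted difference was -2.10 (SE 0.34, limma adjusted p = 0.00274). Of 19 tested lipid genes linked to PPARA, 13 fell and 4 rose in the outer medulla, beside 18.8% and 32.7% of all tested probe sets. Cyp4a2, for a fatty acid hydroxylase, differed by -4.79 and the peroxisomal enzyme gene Ehhadh by -4.24, while Acsl1, for an acyl-CoA synthetase, rose by 1.26. Genes of the Cyp4a family are close in sequence, and the array may not separate them fully.

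Pax2 and Tfap2b stood higher in the outer medulla on every array. Pax2 had 14.16, 13.19, 13.71 and 13.55 on the outer medulla arrays of EG with phlorizin, EG, phlorizin and control, against 10.07, 9.44, 9.98 and 9.92 on the cortex arrays. The difference of 3.80 had the smallest SE of the 8 genes (0.14, limma adjusted p = 1.56e-05), and it ranged only from 3.63 to 4.08 over the treatments. Principal cell markers were called higher in the outer medulla for 4 of 7 tested members and lower for 1. Their mean level was 12.65 to 13.57 there and 10.69 to 11.64 in the cortex. Tfap2b had 13.25, 11.95, 13.62 and 13.54 in the outer medulla, against 9.36, 8.93, 9.44 and 9.96 in the cortex, a difference of 3.67 (SE 0.21, limma adjusted p = 5.51e-05).

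The zone difference of Tfap2b ran against that of the distal convoluted tubule genes linked to it. Slc12a3, the thiazide-sensitive cotransporter gene, was under background on all 4 outer medulla arrays and at least 282-fold lower there. The calcium buffer gene Calb1 fell in the outer medulla, where it was above background on 1 of 4 arrays, and the potassium channel gene Kcnj16 differed by -1.79. Kcnj10, its channel partner, differed by 0.54 (adjusted p = 0.258), and Pvalb was under the highest background probe on all 8 arrays. All 5 tested markers of the distal convoluted and connecting tubule fell in the outer medulla, with Slc12a3 and Calb1 among them. The markers had a mean level of 6.08 to 8.28 there and 12.09 to 13.13 in the cortex. Of the 8 tested thick ascending limb markers, 6 rose in the outer medulla and 0 fell.

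Pax8 and Esrrg also rose in the outer medulla, by less. Pax8 had 15.99, 15.46, 16.09 and 15.87 on the outer medulla arrays of EG with phlorizin, EG, phlorizin and control, against 13.49, 14.27, 13.26 and 13.02 on the cortex arrays, and the groups did not overlap. The fitted difference was 2.35 (SE 0.29, limma adjusted p = 0.000949). It was 1.20 among EG arrays and 2.51 to 2.86 in the other treatments. Esrrg had 13.67, 12.29, 14.16 and 14.18 in the outer medulla, against 11.93, 11.13, 12.54 and 12.28 in the cortex, so the zones overlapped through the outer medulla EG array. It rose by 1.60 (SE 0.17, limma adjusted p = 0.000467). Of the 14 mitochondrial and partner genes listed with ESRRG, 1 rose in the outer medulla, Ppargc1a (1.70), a coactivator of mitochondrial genes, and 2 fell.

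Tfcp2l1 was the one gene of the 8 whose zones were not told apart by the test. It had 13.98, 14.11, 15.09 and 15.26 on the outer medulla arrays of EG with phlorizin, EG, phlorizin and control, and 14.15, 13.93, 14.59 and 14.69 on those of the cortex. The ranges overlapped, and the fitted difference was 0.27 (SE 0.17, limma adjusted p = 0.227). In all, the zones did not overlap for 5 of the 8 genes, beside 38.9% of all tested probe sets. Of collecting duct genes linked to TFCP2L1, 5 of 8 rose and 2 fell in the outer medulla, beside 32.7% and 18.8% of all tested probe sets. Slc4a1, for the anion exchanger of acid-secreting intercalated cells, rose by 3.82, and Aqp2, for the vasopressin-regulated water channel, by 2.72. Oxgr1, for an oxoglutarate receptor, fell.

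**Figure D2:**
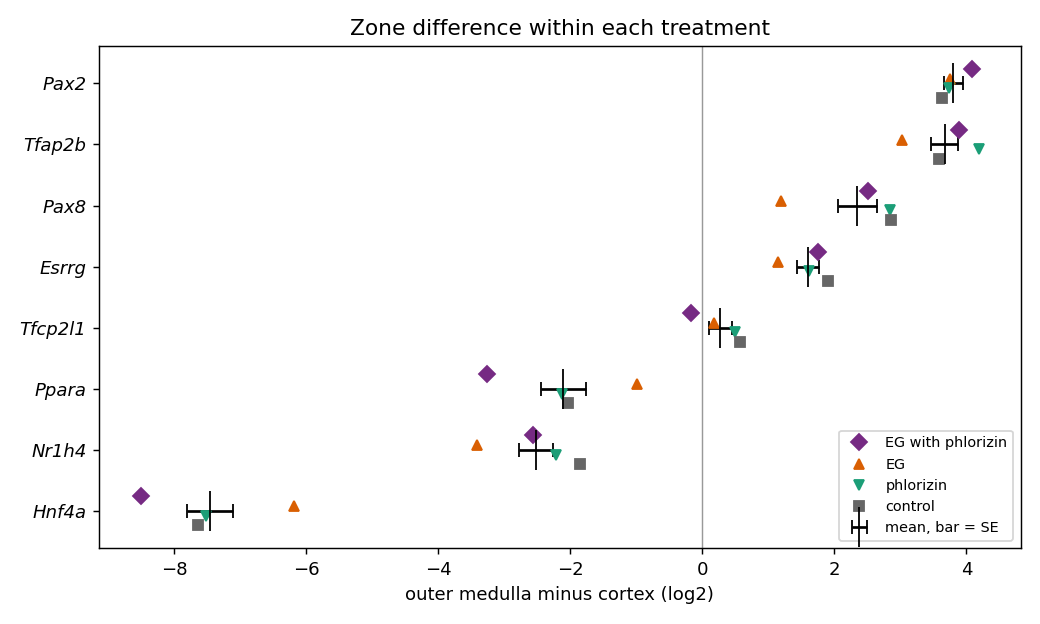
Difference between the outer medulla and the cortex array (log2, horizontal axis) for each of the 8 genes, with 1 symbol per treatment and a black mark for the fitted mean with its limma SE. Means run from 3.80 for Pax2 to -7.46 for Hnf4a, and Tfcp2l1 at 0.27 is the only one whose treatments lie on both sides of 0.

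EG was accompanied by lower values of 5 of the 8 genes. Ppara, Nr1h4, Esrrg, Tfap2b and Tfcp2l1 each had both EG arrays below both arrays without EG, in each zone, which held for 16.4% of all tested probe sets. Compared with control, 4 of them, Ppara, Nr1h4, Esrrg and Tfap2b, were at least 1 lower on the log2 scale in both zones, as were 4.47% of tested probe sets. None of the 8 was at least 1 higher in both, as were 4.9%. The cortex differences of Nr1h4, Esrrg and Tfap2b, -1.17, -1.15 and -1.02, lay just past that size, and under quantile normalization they were -0.97, -0.96 and -0.93. Under phlorizin 0 of the 8 were at least 1 lower in both zones, beside 0.319% of tested probe sets. Hnf4a, Pax2 and Pax8 were not lower in this way. The median EG minus control difference of the 8 genes was -1.37 for the outer medulla and -0.89 for the cortex, beside -0.05 and -0.07 over all tested probe sets. These comparisons set single arrays against each other and carry no p-value.

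Ppara showed the largest difference. Its EG value in the outer medulla, 7.56, was not above the highest background probe of its array, so Ppara was at least 5.83-fold lower than at the control value of 10.30. The cortex EG value was 8.55 and the control value was 12.34, a difference of -3.79, or 13.8-fold. The arrays of EG with phlorizin were below those of phlorizin alone in both zones, by less, with an outer medulla difference of -1.78 and a cortex difference of -0.65. Nr1h4 had outer medulla differences of -0.81 with phlorizin and -2.72 without it, and cortex differences of -0.45 and -1.17. The EG difference in the outer medulla minus that in the cortex, tested over the 4 treatments, was -0.96 for Nr1h4 (SE 0.38, limma adjusted p = 0.406) and did not pass. Limma called 0 of the 8 genes and 0 of 13170 probe sets for that difference between zones. At an unadjusted p under 0.05 it had 0 of the 8, beside 12.4% of tested probe sets.

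Esrrg had outer medulla EG differences of -0.48 with and -1.90 without phlorizin, and cortex differences of -0.61 and -1.15. Tfap2b had outer medulla differences of -0.37 with and -1.59 without phlorizin, and cortex differences of -0.07 and -1.02. For Tfcp2l1, the collecting duct factor, the outer medulla differences were close to each other, -1.11 with and -1.15 without phlorizin. Its cortex differences were -0.44 and -0.76. Whether the EG difference of any of these genes changed with phlorizin was not tested, since each cell of the design holds 1 array.

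**Figure D3:**
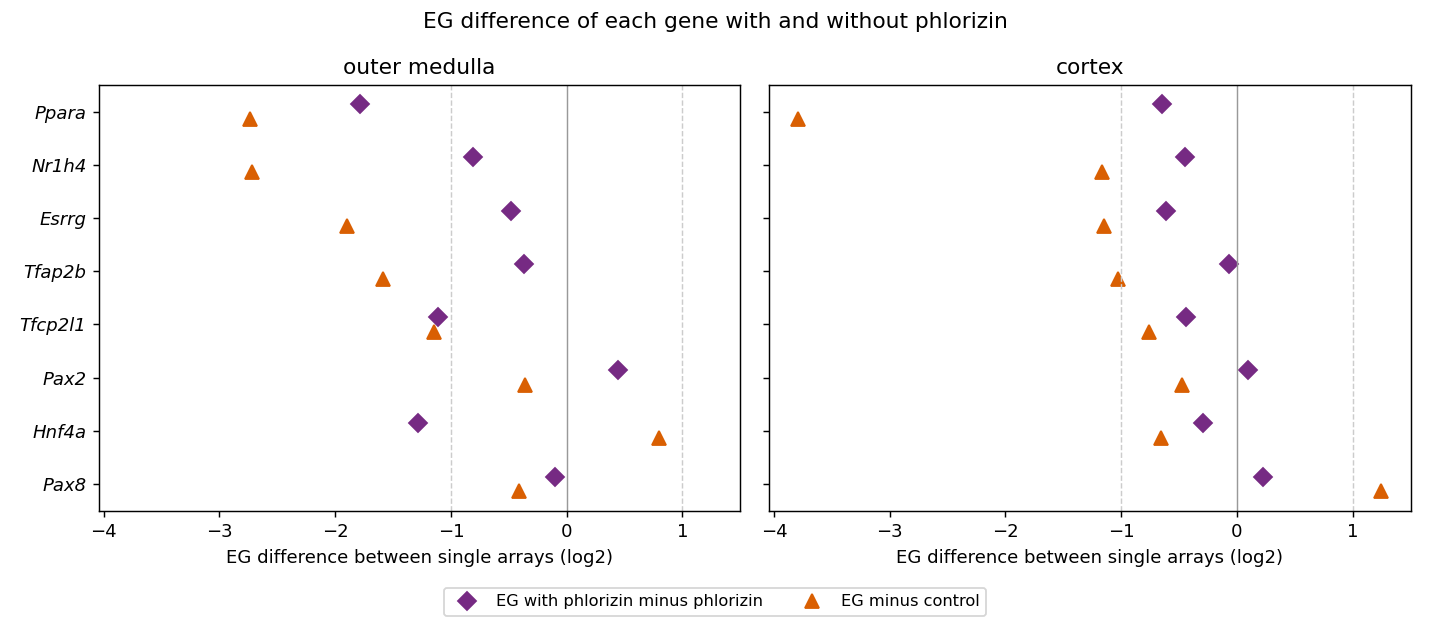
EG difference between single arrays (log2, horizontal axis) of each gene in the outer medulla (left) and the cortex (right), with diamonds for EG with phlorizin minus phlorizin and triangles for EG minus control. Dashed lines stand at a difference of 1 in either direction; Ppara, Nr1h4, Esrrg and Tfap2b lie beyond -1 in both zones without phlorizin, and no gene does so with it.

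Hnf4a, Pax2 and Pax8 had no common direction with EG. In the cortex, where it is bright, Hnf4a differed by -0.29 with and -0.66 without phlorizin. Its outer medulla differences of -1.28 and 0.80 come from values near background. Pax2 had outer medulla differences of 0.44 with and -0.36 without phlorizin, and cortex differences of 0.09 and -0.47. Pax8 was 1.25 higher with EG than in the cortex control, at 14.27 against 13.02, and had an outer medulla difference of -0.41. Under phlorizin the same differences were 0.23 and -0.10. The cortex EG array, which holds the highest cortex value of Pax8, is also the one with the low spike-in controls, and the part of that in the value was not tested.

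To test EG over both phlorizin arms, limma was fitted to 4 profiles, each the mean of both zones, with phlorizin as a covariate. At an adjusted p under 0.05 it called 0 of the 8 genes, and 5 of 13170 probe sets, 0.038%, all of them higher. At an unadjusted p under 0.05 it had 5 of the 8 genes, all lower, where 12.9% of tested probe sets were lower at that level. Ppara had an estimate of -2.24 (SE 0.47, limma adjusted p = 0.0882), Tfcp2l1 of -0.87 (SE 0.21, 0.101), Nr1h4 of -1.29 (SE 0.34, 0.115), Esrrg of -1.04 (SE 0.29, 0.121) and Tfap2b of -0.76 (SE 0.30, 0.213). The gene's own error in this fit, with 1 residual degree of freedom, comes from how far the EG differences with and without phlorizin lie apart. Moderation joins it to a prior of 4.94 degrees of freedom from all tested probe sets. The SE therefore rests mostly on that prior. Estimates for Hnf4a, Pax2 and Pax8 were -0.36, -0.07 and 0.24, each with an adjusted p of at least 0.484. The calls depended on the settings. Every setting that called Ppara used its outer medulla EG value, which was not above background. Ppara passed with the arrays centred on their median (-2.28, adjusted p = 0.0268), with no filter on low values (0.0399), on the outer medulla arrays alone (-2.26, 0.0367) and with treatment as a random block over all 8 arrays (0.0293), while over all 9 alternatives its adjusted p ran from 0.0268 to 0.199. These settings called far more probe sets in all than the 5 of the main fit, such as 838 with centred arrays and 633 with no filter. The counts for the other settings are given in the closing section. The random block fit also called Tfcp2l1 (0.0241), Esrrg (0.0332) and Nr1h4 (0.0432), all lower. Its estimated correlation between the arrays of a treatment was -0.10, so it counted both zones as separate arrays of EG. Both zones may come from the same animals, so these calls do not rest on replicates of EG.

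Among EG animals, those given phlorizin had higher Ppara and Nr1h4 values in both zones. Ppara was at least 2.07-fold higher in the outer medulla with EG and phlorizin than with EG alone, and 3.53 higher on the log2 scale in the cortex. Nr1h4 was 1.86 and 1.02 higher. These were the 2 of the 8 genes at least 1 higher in both zones, also with Ppara at its bound, beside 1.15% of tested probe sets. Esrrg was 1.39 and 0.80 higher, Tfap2b 1.30 and 0.43, and Pax2 0.97 and 0.63. Tfcp2l1 differed by -0.13 and 0.22. These differences use the EG arrays that the EG minus control differences also use. In the cortex they rest on the array with the low spike-in controls, and the outer medulla values do not use it. Without EG, 0 of the 8 genes were at least 1 apart between phlorizin and control in both zones, beside 0.0304% of tested probe sets higher and 0.0152% lower. The largest difference of the 8 genes there was -0.52, for Tfap2b in the cortex, and the other 15 lay between -0.17 and 0.39. Over all 4 profiles, limma called 0 of the 8 genes and 0 of 13170 probe sets for phlorizin, and at an unadjusted p under 0.05 it had 1 of the 8, Ppara (1.36, SE 0.47, adjusted p = 0.994), beside 3.55% of tested probe sets.

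Genes linked to each factor were described beside it, mostly from work in mice and human cells. Counts of list members at least 1 apart in both zones were made with each value at no less than the highest background probe of its array. A gene under background on all 4 arrays of a zone could therefore not be counted. With values as deposited, 4.47% of all tested probe sets were at least 1 lower with EG than in the control in both zones. The share at least 1 higher was 4.9%. Among the 10 tested HNF4A-linked genes, 2 were at least 1 lower with EG than in the control in both zones, the gluconeogenesis genes G6pc1 and Fbp1. Of the 10, 4 were under background on all 4 outer medulla arrays and could not be counted. In the cortex, where they are bright, G6pc1 and Fbp1 differed by -2.35 and -1.91, Pck1 of the same pathway by -2.44 and the organic anion transporter gene Slc22a6 by -2.15. Of 19 PPARA-linked lipid genes, 3 were lower by that size in both zones and 1 was higher. The lower ones were Ehhadh (-2.43 and -2.13), the acyl-CoA dehydrogenase gene Acadm (-1.54 and -1.91) and Acsl1 (-2.82 and -1.61), and the higher one was Angptl4, for a lipase inhibitor, at least 2.39-fold higher in the outer medulla and 2.02-fold in the cortex, since both control values were under background. Other members rose mainly in the outer medulla. Cyp4a8 was 3.22 higher there and 0.79 higher in the cortex, and Plin2 was 1.20 and 0.44 higher. The list's medians of -0.56 and -0.55 were smaller in size than the differences of Ppara itself. Under phlorizin 0 of the 19 were at least 1 lower in both zones, beside 0.319% of all tested probe sets with values as deposited. By limma, 0 members of these lists passed for EG in either direction.

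Of the 14 mitochondrial genes listed with ESRRG, 6 were at least 1 lower with EG than in the control in both zones. With values as deposited that held for 4.47% of all tested probe sets. The list had medians of -1.34 and -0.90, beside -0.05 and -0.07 over all tested probe sets. Ndufs7, for a complex I subunit, had differences of -2.74 (outer medulla) and -2.08 (cortex), and Cycs, encoding cytochrome c, of -1.44 and -1.33. Of the 8 TFCP2L1-linked collecting duct genes, 4 were lower in this way, with medians of -1.58 and -2.08. Slc4a1 differed by -2.99 and -4.77, and Atp6v1b1, for a subunit of the proton pump, by -2.34 and -2.80. Oxgr1 was at least 8.1-fold lower with EG in the outer medulla and differed by -4.20 in the cortex. Aqp2, of the principal cells, differed by -0.51 and -0.56. Slc4a1 and Oxgr1 were also at least 1 lower under phlorizin in both zones, beside 0.319% of all tested probe sets with values as deposited. The differences were -1.03 and -1.19 for Slc4a1 and -2.13 and -1.72 for Oxgr1. Among 4 tested TFAP2B-linked genes, 2 were lower in this way. Kcnj10 was under background with EG in both zones and at least 9.2-fold and 5.26-fold lower, and Kcnj16 differed by -1.88 and -1.01. In the cortex, where both are bright, Calb1 differed by -1.85 and Slc12a3 by -0.62. None of the 3 tested NR1H4-linked genes was at least 1 lower or higher in both zones, but none of them could be counted. Slc51a and Abcc2 were under background on all 4 outer medulla arrays, and Nr0b2 on all 4 cortex arrays. In the cortex Slc51a differed by -1.06 and Abcc2 by -1.13, and Nr0b2 was at least 1.32-fold lower in the outer medulla. None of the 5 tested genes linked to PAX2 and PAX8 was at least 1 lower or higher in both zones. Only Gata3 and Cdh16 of them could be counted, since Lhx1 and Wt1 were under background throughout the outer medulla and Slc14a2 throughout the cortex. By limma, 0 members of these lists passed for EG either. Acadm, Ndufs7, Atp6v1b1 and Kcnj10 are named after their values were seen.

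**Figure D4:**
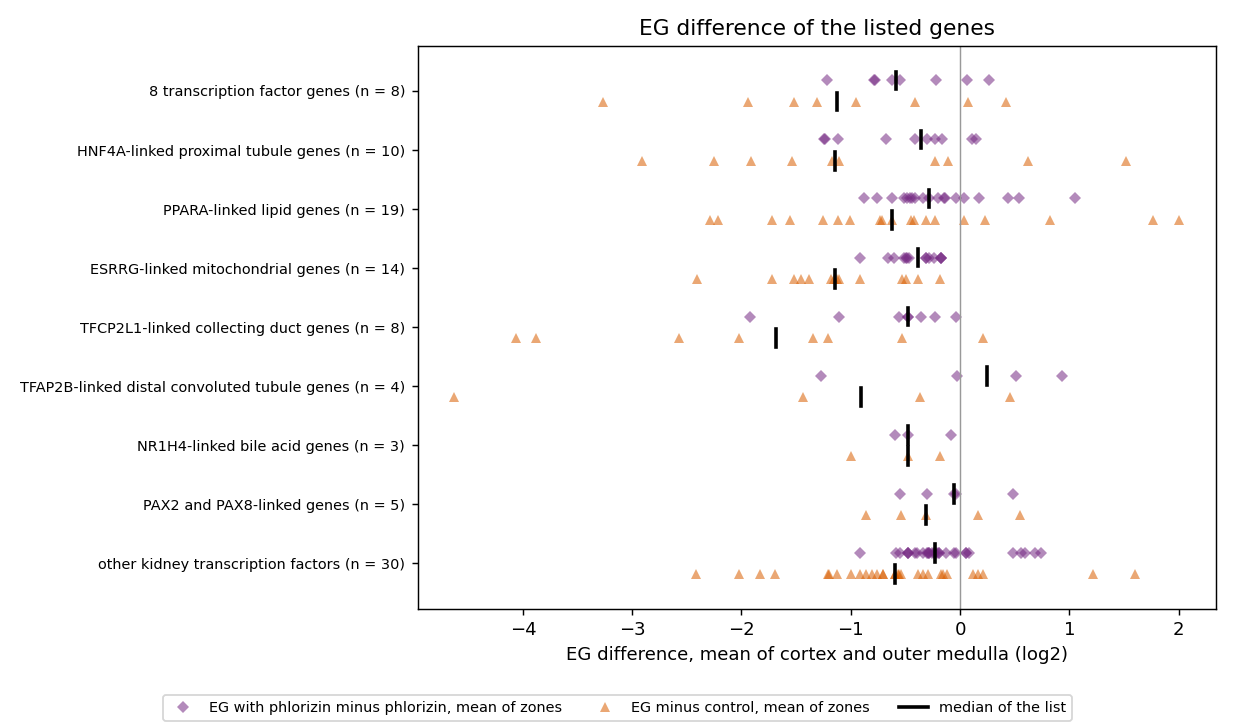
EG difference (log2, mean of both zones, horizontal axis) of the tested genes of each list, with diamonds for EG with phlorizin minus phlorizin, triangles for EG minus control and a black bar for the median of the list. Values under background are drawn as measured, so some points overstate what the arrays can show; the triangles of the 8 genes reach -3.26, for Ppara, which holds such a value, while its diamond stands at -1.22. Acadm, Foxi1, Esrra, Ppargc1a, Gata3, Lhx1, Wt1 and Nr0b2 are each on 2 of the lists drawn.

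Marker levels of several cell types differed with EG as well. The counts below stand beside 4.47% of all tested probe sets at least 1 lower in both zones and 4.9% higher, with values as deposited. Intercalated cell markers had a mean level of 10.62 to 11.43 with EG and 12.13 to 12.31 without it in the outer medulla, and 9.47 to 11.23 and 11.72 to 12.08 in the cortex, with 7 of 10 at least 1 lower than control in both zones. Thick ascending limb markers had 14.52 to 15.62 with EG and 16.07 to 16.26 without it in the outer medulla, and 12.11 to 13.66 and 13.93 to 14.11 in the cortex, with 6 of 8 lower. S1 and S2 proximal tubule markers had 15.97 to 16.64 with EG and 16.87 to 16.91 without it in the cortex. With values raised to background, 0 of 10 were lower in both zones. That count could not include 5 of the 10, which were under background on all 4 outer medulla arrays. In the cortex alone the 10 had a median difference of -0.68, beside -0.07 over all tested probe sets. The lowest were Slc6a19 (-3.24) and Slc22a6 (-2.15). None of these 3 lists had a member under background on all 8 arrays. The marker lists share genes with the lists above. Atp6v1b1, Atp6v0d2, Slc4a1 and Foxi1 are also TFCP2L1-linked, and Slc22a6, Slc22a8, Slc34a1, Slc5a12 and Cubn also HNF4A-linked. Slc12a3 and Calb1 are also TFAP2B-linked. Aqp1, Slc7a13 and Slco1a6 are named after their values were seen. For macrophages, 7 of 9 tested markers were higher than control by at least 1 in both zones, and for fibroblasts 6 of 7, with Itgam and Lum under background throughout. Tubule injury genes were higher by that size for 8 of 11, and limma called 3 of them, Havcr1, Spp1 and Clu. The part of these shifts in the differences of the 8 genes was not tested.

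Of 44 other kidney transcription factor genes listed, 31 were on the array by symbol and 30 were tested. In the outer medulla 19 rose and 4 fell, leaving out Pparg, which passed the test but was under background on all 8 arrays. Of all tested probe sets 32.7% rose and 18.8% fell there. Ehf, an epithelial factor of the distal nephron and collecting duct, rose by 5.26 (SE 0.14, limma adjusted p = 5.91e-06), Sim1 rose by 3.36, and Maf fell by 3.56. Esrrb, a relative of Esrrg, was under background on all 4 cortex arrays and at least 2.51-fold higher in the outer medulla. With EG, 3 of the 30 were at least 1 lower than control in both zones and 0 at least 1 higher. Of all tested probe sets, with values as deposited, 4.47% were lower by that size and 4.9% higher. Of the 30, 3 were under background on all 4 outer medulla arrays and 7 on all 4 cortex arrays, and these could not be counted. Sim1 differed by -2.21 and -1.84 and Nr3c2, the mineralocorticoid receptor gene, by -1.97 and -1.69. Klf15, a zinc finger factor of metabolic genes, differed by -1.59 and -1.80 and is named after its value was seen. Esrrb was at least 5.41-fold lower in the outer medulla. In the cortex, where both control values were under background, Sox4, linked to progenitor states, was at least 4.49-fold higher with EG and Elf3, an epithelial factor, at least 3.11-fold. Limma called 0 of the 30 for EG, and 12 had an unadjusted p under 0.05, beside 22.7% of tested probe sets in either direction.

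For each of the 8 genes the 3 named genes with the most similar treatment pattern were sought among 9314, by the smallest root mean square difference over the 8 arrays after each gene was centred on its mean in each zone. Closest to Hnf4a were Aldh8a1 (0.07), Slc3a1 (0.14), the cystine transporter subunit, and Sfxn1 (0.18), a mitochondrial serine carrier, against a root mean square of 0.51 for Hnf4a itself. The outer medulla values of Hnf4a in this pattern lie near background. Closest to Ppara were Ppp1r1a (0.30), a phosphatase inhibitor, Cbs (0.37), of the transsulfuration pathway, and Dhtkd1 (0.37), of lysine breakdown, against 1.46 for Ppara. Ppp1r1a had the same EG pattern with the zones the other way, 4.42 higher in the outer medulla.

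Closest to Nr1h4 were Hyal1 (0.09), Bdh1 (0.12), an enzyme of ketone bodies, and Veph1 (0.13), and closest to Esrrg were Epb41l1 (0.10), Pyroxd2 (0.11) and Mdh1 (0.12), the cytosolic malate dehydrogenase. Their own root mean squares were 0.87 and 0.66. Closest to Tfap2b were Mycbpap (0.11), Siah2 (0.12) and the thiamine transporter gene Slc19a2 (0.12), and to Tfcp2l1 B3galnt2 (0.08), Pole4 (0.10) and Dnajc4 (0.11), against 0.54 and 0.46. Pax8 lay closest to Kiaa0040, Slc38a2, an amino acid transporter gene, and Ppp1r36 (each 0.11), against 0.37, and Pax2 to Yaf2 (0.05), Dexi (0.07) and Abhd10 (0.08), against 0.30. The points of each pattern share arrays and, where zones come from the same kidneys, animals.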

How the data were processed

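Per the submitters' processing notes, the authors made the deposited values with RMA, of a version not given in the sources used here. These deposited values were taken as log2 values, judged from their range of 2.28 to 19.7, and used without further normalization. Of 24834 probe sets, 1646 control probe sets were left out. Symbols came from the platform annotation and were available for 15049 of the other 23188. A probe set was tested if at least 1 array had a value of 7.54 (the median of the table) or more. A gene was taken as not above background where its value did not pass the highest of the 23 background probes of that array, and folds of named genes were then given against that probe as bounds. Fits, list medians, mean levels and shares over all probe sets used the values as deposited, and list counts of differences between treatments used values raised to that probe.

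Tests used limma 3.58.1 in R 4.3.3, 2-sided, with Benjamini-Hochberg adjustment over the 13170 tested probe sets. Zones were compared over 8 arrays with treatment as a block. EG and phlorizin were tested on 4 profiles, each the mean of both zones of a treatment, with 1 residual degree of freedom before moderation, and the difference of the EG effect between zones on the 4 zone differences. Within zones, differences of at least 1 were counted, with no p-value. Fits were tested on simulated data. There the zone fit recovered 43.3% of true log2 differences of 1 and 91% of those of 2, with 9 false calls. The EG fit recovered 9% and 91%, with 17 false calls, so it missed most differences of 1. Figures were drawn with matplotlib 3.10.9 in Python 3.11.15.

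The 8 genes and all gene lists were chosen with earlier results of these data known. Named are the 8 genes, the 3 nearest in pattern to each, and list members past the zone or EG test or, where none passed, with the largest EG differences, and a few genes said to be named after their values were seen. With 1 array per zone and treatment, the number of arrays limits the precision. Alternatives covered normalization, centring, the filter, the variance prior, left-out treatments, single zones and the size counted.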

Additional observations from a re-analysis of the deposited data

Results flagged for a closer look

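Pax8 had EG differences of opposite sign in the zones, in both phlorizin arms. It had outer medulla differences of -0.10 with phlorizin and -0.41 without it, and cortex differences of 0.23 and 1.25. The EG difference in the outer medulla minus that in the cortex was -0.99 (SE 0.40), which did not pass the limma test (adjusted p = 0.414).

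Pax2 had EG differences of opposite sign without and with phlorizin, in both zones. It had outer medulla differences of 0.44 with phlorizin and -0.36 without it, and cortex differences of 0.09 and -0.47. The EG difference with minus without phlorizin was 0.68 as a mean of the zones, and this difference was not tested.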

How the results depend on the processing

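The labels carry no replicate numbers, and the zone fit paired the arrays by treatment. Each of the 8 genes has 1 probe set, so another choice of probe set gave no other value. The zone calls of 7 of the 8 genes were kept, in the same direction, under all 10 alternatives, 4 of which left out the arrays of 1 treatment. For the EG fit, the count of the 8 genes called, 0 in the report, was 1 (Ppara) with arrays centred on their median, with no filter and with outer medulla arrays only. It was 4 in a fit of all 8 arrays, zone included, that took treatment as a random block. These were Ppara, Esrrg, Tfcp2l1 and Nr1h4, with limma adjusted p from 0.0241 to 0.0432. The estimated correlation between zones in that fit was -0.10, so it counted both arrays of a treatment as separate, though they may share animals. The count of all probe sets called for EG, 5 in the report, was 0 with quantile normalization and with the stricter filter, 838 with centred arrays, 633 with no filter, 59 with a trend in the prior, 2 with a robust prior, 353 with outer medulla arrays only and 1692 with the random block. For the zone difference of the EG effect it was 0 in the report, 9 with quantile normalization, 4 with no filter and 49 with a trend. The 4 genes at least 1 lower with EG than in the control in both zones became 1, Ppara, under quantile normalization, where the cortex differences of Esrrg, Tfap2b and Nr1h4 were -0.96, -0.93 and -0.97, and 1 at a size of 2. With phlorizin present, 0 became 1 at a size of 1.5-fold. The 2 genes higher with EG and phlorizin than with EG alone became 1 under quantile normalization, 4 at 1.5-fold and 0 at 2.

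Signs turned for estimates that passed no test in any of these fits. Pax2 had an EG estimate of 0.0011 with quantile normalization and 0.042 with outer medulla arrays only, and Pax8 of -0.26 with outer medulla arrays only. For phlorizin, Tfcp2l1 had 0.0153 with centred arrays, and with cortex arrays only Hnf4a had 0.36, Pax8 -0.27, Tfcp2l1 0.0625 and Tfap2b -0.047. The cause of these changes was not tested. Signal over background limits Hnf4a in the outer medulla and Ppara on the outer medulla EG array.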
